A study of Homo sapiens with 14 samples.

Results

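This comparison set radioresistant U251MG cells that carried the hairpin labelled shNC against radioresistant U251MG cells for which the labels name no hairpin. It used 6 of the 14 samples of the series, 3 RNA libraries of each group, chosen by the group that the labels give each sample. U251MG is an established human glioblastoma line, and all groups have the genotype label WT. The radioresistant line was derived by daily X-ray fractions of 2 Gy, 30 fractions in all, to a total dose of 60 Gy, and both groups compared here share that history. shNC is the non-targeting arm of the knockdown of IFI16 in the same series, and its sequence, vector and selection are not given in the labels. Unirradiated control cells (3 RNA libraries) served only as a reference level for what was kept or lost, and the shIFI16 cells (3 RNA libraries) are shown as the other group of the same table as shNC. The ATAC-seq libraries, 1 of control and 1 of radioresistant cells, were not used.

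The hairpin and the table cannot be told apart. Control and radioresistant libraries lie in 1 deposited table and shNC and shIFI16 libraries in another, and the 2 tables were normalized separately. No test was therefore run across them. Values are in TPM, transcripts per 1000000 scaled for transcript length, and every difference below is a difference of mean log2(TPM + 1) with the pooled SD of 3 and 3 libraries. A gene is called lower or higher when the 3 libraries of a group do not overlap the 3 of the other and the means differ by at least 1 on that scale, which is 2-fold. Only genes that reached 1 TPM in 3 or more of the 6 libraries were compared. The labels do not say that the 3 libraries of a group came from separate cultures, so the SD may be technical.

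Type I and type III interferons are secreted proteins that signal through their receptors and the kinases JAK1 and TYK2 to a complex that holds STAT2 and IRF9 and drives interferon-stimulated genes through a short promoter element. Some of these genes, together with IFNB1, CXCL10 and CCL5, can also be driven by IRF3 or NF-kB directly after a nucleic acid sensor is engaged, with no secreted interferon in between. IFI16 is a DNA sensor of the nucleus and cytoplasm and is itself interferon-stimulated. NRF2 is the transcription factor of the oxidative stress response, and heme oxygenase HMOX1 is among its targets.

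Of 12873 genes compared, 1183 were lower in shNC cells (9.19%) and 432 were higher (3.36%). The median difference over all genes was -0.18, and 8135 genes lay below 0, so lower calls outnumbered higher ones before any list was looked at. Higher genes made up 26.7% of the calls as deposited, 41.8% with median-ratio scaling of all libraries and 46.5% after quantile normalization. The level of a single gene is therefore best read against that of other genes. Libraries of a group were close to each other, by the correlation of log2(TPM) over the 11556 genes at 1 TPM or more in every RNA library. It was 0.995 to 0.996 within shNC and 0.991 within radioresistant cells. Between these groups it was 0.933 to 0.944, and between shNC and shIFI16, which share a table, 0.978 to 0.982. These correlations are across genes, which are not independent replicates. In the plot of the level of each gene, most genes lie along the diagonal, with interferon-stimulated genes below it and small RNA genes above it.

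**Figure D1:**
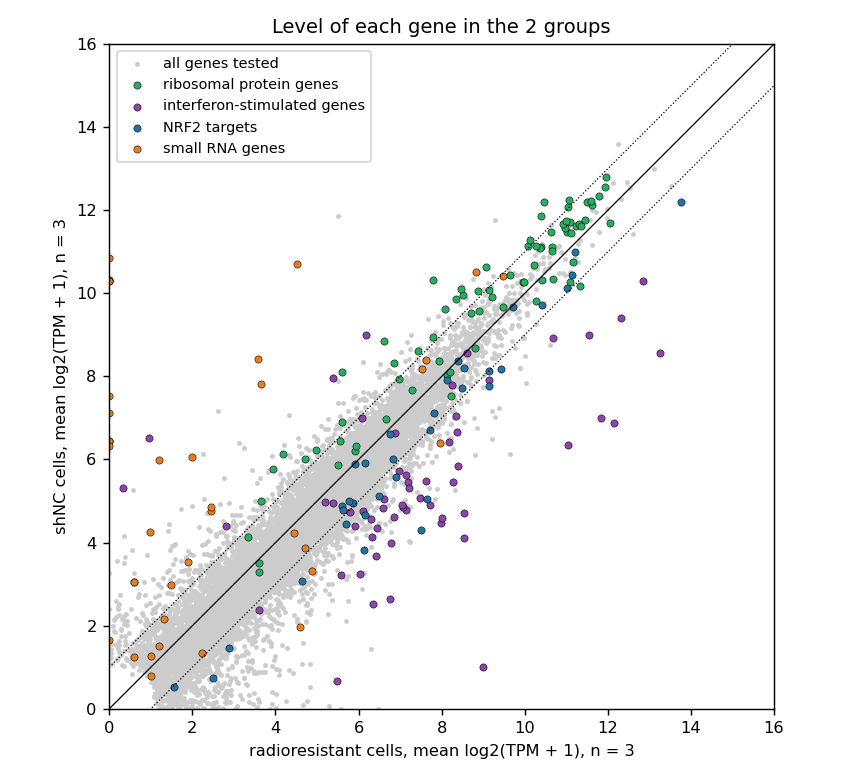
Mean log2(TPM + 1) of each gene compared in the 3 radioresistant libraries (horizontal) and the 3 shNC libraries (vertical), with the line of equal level and dotted lines at a difference of 1 in each direction. Of 57 interferon-stimulated genes 46 lie below the lower dotted line with no overlap between the libraries, and small RNA genes lie mostly above the diagonal.

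Some values set both groups of the second table apart from both groups of the first, where table and hairpin cannot be told apart. Small RNA genes held 0.133 to 0.464% of the TPM in radioresistant libraries and 1.47 to 3.43% in shNC libraries, and 1.54 to 3.42% in the shIFI16 libraries. There were 7 genes, all of small RNA, listed at 0 in all 6 control and radioresistant libraries and at 1 TPM or more in all 6 of the other table, and 1 gene, PCSK1N, with the reverse pattern. The paralogs NOMO2 and NOMO3 exchanged their values: NOMO2 went from 81.8, 100.5 and 81.2 TPM in radioresistant libraries to under 0.01 TPM in every shNC library, while NOMO3 was 62.7 to 73.8 TPM in shNC. The same exchange is present in shIFI16 cells, where NOMO3 was 73.8 to 82.1 TPM. Among the 432 higher genes, 21 were small RNA genes. Values of close copies, such as NOMO, HLA, IFITM, AKR1C and ribosomal protein genes, are uncertain for that reason.

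The promoters of 6 genes are shown because the members of the interferon response did not all move the same way. MX1, IFI27, IFI6 and ISG15 were lower in shNC cells, and CXCL10 and CXCL11 were higher. Each window runs from 250 bases before to 50 bases after the annotated start, in the direction of the gene, from RefSeq on GRCh38.p14. MX1 is at chr21:41420308-41420607 on the plus strand, IFI27 at chr14:94110486-94110785 on the plus strand, IFI6 at chr1:27672143-27672442 on the minus strand and ISG15 at chr1:1013247-1013546 on the plus strand. CXCL10 is at chr4:76023448-76023747 and CXCL11 at chr4:76036021-76036320, both on the minus strand. Capitals mark matches, on either strand, to the core of the interferon-stimulated response element, GAAANNGAAA, and to an NF-kB core, GGGANNTTCC.
MX1: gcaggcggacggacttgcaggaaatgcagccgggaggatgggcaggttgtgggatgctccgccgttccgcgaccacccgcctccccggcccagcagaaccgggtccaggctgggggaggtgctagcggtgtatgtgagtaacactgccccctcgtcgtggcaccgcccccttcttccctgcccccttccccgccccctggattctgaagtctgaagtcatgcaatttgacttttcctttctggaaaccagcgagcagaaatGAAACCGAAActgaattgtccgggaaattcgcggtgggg
IFI27: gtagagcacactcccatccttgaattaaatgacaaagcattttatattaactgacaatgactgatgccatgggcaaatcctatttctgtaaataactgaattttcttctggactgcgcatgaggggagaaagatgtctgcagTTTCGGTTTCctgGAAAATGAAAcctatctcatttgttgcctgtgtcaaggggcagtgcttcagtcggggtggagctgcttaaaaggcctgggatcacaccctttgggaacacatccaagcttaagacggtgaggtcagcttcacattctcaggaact
IFI6: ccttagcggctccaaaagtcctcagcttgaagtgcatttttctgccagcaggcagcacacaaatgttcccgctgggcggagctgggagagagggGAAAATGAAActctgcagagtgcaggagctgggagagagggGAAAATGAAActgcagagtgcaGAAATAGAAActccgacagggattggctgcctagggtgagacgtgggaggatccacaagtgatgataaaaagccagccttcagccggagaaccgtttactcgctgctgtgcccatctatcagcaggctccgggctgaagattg
ISG15: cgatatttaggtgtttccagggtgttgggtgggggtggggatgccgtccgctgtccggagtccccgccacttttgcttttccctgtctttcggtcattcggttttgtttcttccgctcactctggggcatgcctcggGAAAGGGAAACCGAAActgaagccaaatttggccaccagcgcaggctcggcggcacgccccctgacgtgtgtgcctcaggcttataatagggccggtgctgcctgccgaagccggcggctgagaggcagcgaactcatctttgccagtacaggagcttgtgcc
CXCL10: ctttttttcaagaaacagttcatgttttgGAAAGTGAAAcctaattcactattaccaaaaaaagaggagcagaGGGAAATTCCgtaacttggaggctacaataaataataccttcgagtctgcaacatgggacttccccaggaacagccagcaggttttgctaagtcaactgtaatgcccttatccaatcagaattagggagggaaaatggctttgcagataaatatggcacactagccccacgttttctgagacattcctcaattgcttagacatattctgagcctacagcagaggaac
CXCL11: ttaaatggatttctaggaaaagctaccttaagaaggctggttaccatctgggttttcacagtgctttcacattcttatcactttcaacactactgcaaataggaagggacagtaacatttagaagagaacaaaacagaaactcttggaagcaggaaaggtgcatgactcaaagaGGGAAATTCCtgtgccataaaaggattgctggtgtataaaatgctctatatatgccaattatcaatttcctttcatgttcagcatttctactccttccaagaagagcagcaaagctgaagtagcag

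The response element core was present 3 times in IFI6, starting 156, 115 and 93 bases before the start, and in 2 overlapping copies in ISG15. MX1 has it 11 bases after the annotated start, and CXCL10 has it 221 bases before the start. The CXCL11 window holds no match to this core, and holds the NF-kB core 76 bases before the start. CXCL10 holds both cores. Of all 27305 promoters of the same length, 3.65% hold the response element core and 1.63% the NF-kB core. Among interferon-stimulated genes with a promoter sequence, the response element core was in 23 of 37 that were lower, in 2 of 3 that were higher and in 3 of 5 that were neither. The NF-kB core was in 1 of the 37 lower genes and in 2 of the 3 higher genes. These 2 are CXCL10 and CXCL11, whose promoters are shown above because of their direction. The NF-kB core was itself chosen after the values were seen. IFIT2 and OASL, which were also higher, had no promoter sequence. The NF-kB counts therefore cannot set the higher genes apart from the lower ones. A match is a description of the letters and not evidence of binding.

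IFI16 is the gene that the second hairpin of the series targets, at chr1:158999976-159055151. It read 70.3, 71.1 and 49.6 TPM in control libraries, 250.8, 309 and 243 TPM in radioresistant libraries and 125, 139.6 and 127 TPM in shNC libraries. The shNC libraries thus lay below all radioresistant and above all control libraries, with a difference of -1.02 ± 0.15 from radioresistant cells. That value is close to the limit of a call, and the call was lost with median-ratio scaling, quantile normalization and rescaling without small RNA and histone genes. It was also lost without shNC replicate 1 and without radioresistant replicate 2. In shIFI16 libraries IFI16 read 7.68, 7.90 and 6.71 TPM.

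The interferon ligands were higher in shNC cells. IFNB1, the gene of interferon beta, at chr9:21077104-21077942, read 3.07, 4.28 and 4.34 TPM in radioresistant libraries and 29.8, 33.5 and 33.7 TPM in shNC libraries. This is 8.30-fold by the means and 2.78 ± 0.17 on the log2 scale, with no overlap. In control cells IFNB1 was listed at 0 in 2 libraries and at 0.678 TPM in the other. IFNL1, a type III interferon, read 0.298, 0 and 0.721 TPM in radioresistant libraries, 9.30, 13.2 and 12.3 TPM in shNC libraries and 0 in every control library. Both ligands were lower in shIFI16 than in shNC libraries, at 11.9 to 13.5 TPM for IFNB1 and 0.941 to 4.28 TPM for IFNL1. Higher ligand levels in shNC cells therefore stood beside the lower levels of most interferon-stimulated genes described below.

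**Figure D2:**
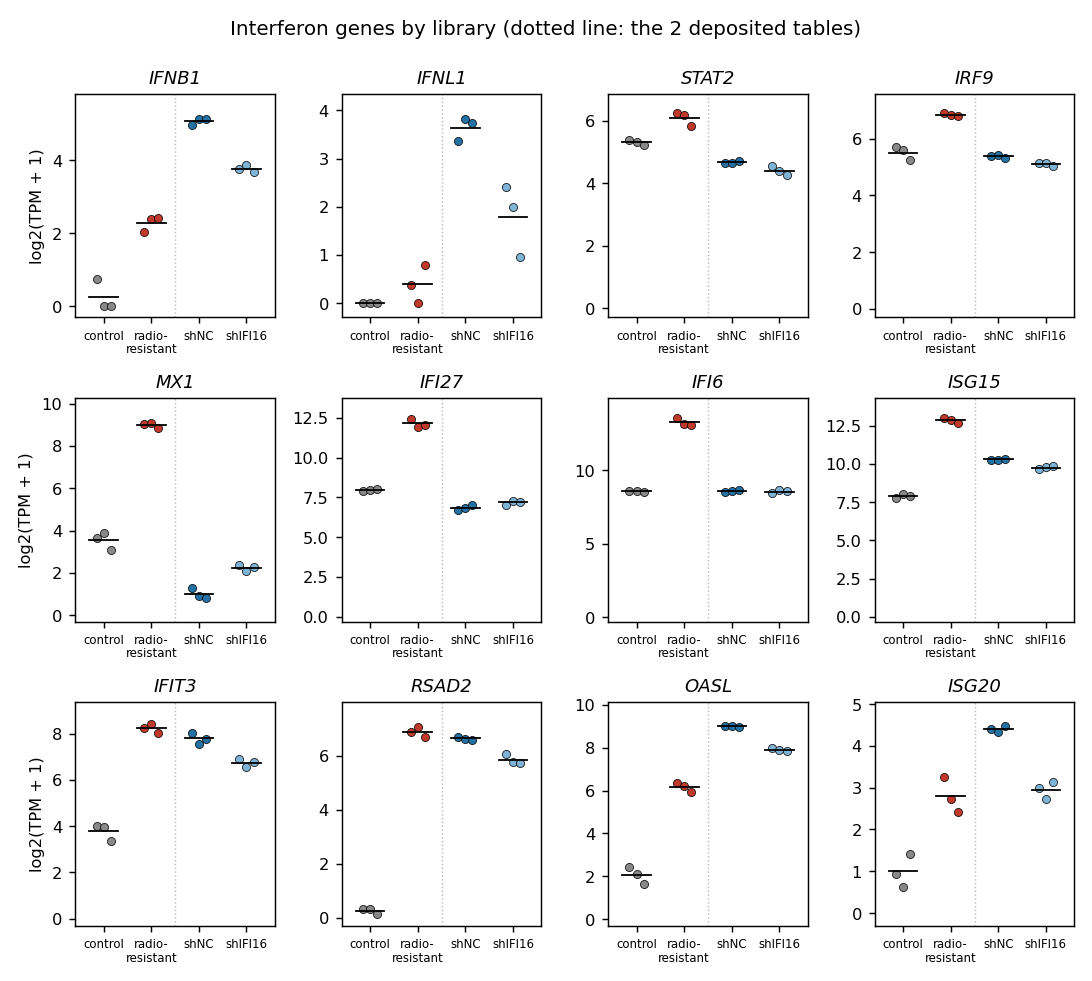
log2(TPM + 1) of 12 interferon genes in each library (points) with the group mean (bar), for control, radioresistant, shNC and shIFI16 cells, 3 libraries each. The dotted line separates the 2 tables. IFNB1, IFNL1, OASL and ISG20 are highest in shNC, IFIT3 and RSAD2 stay near the radioresistant level, and STAT2, IRF9, MX1, IFI27 and IFI6 lie at or below the control level in shNC.

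No receptor or kinase of the pathway was called. IFNAR1 read 23.8, 29.0 and 23.6 TPM in radioresistant libraries and 24.5, 24.0 and 24.0 TPM in shNC libraries. Differences of the receptor genes IFNAR1, IFNAR2, IL10RB and IFNGR1 and of the kinases JAK1, JAK2 and TYK2 were between -0.53 and 0.15. IFNGR2 differed by 0.64. The transcription factors moved instead. STAT2 read 75.6, 72.4 and 56.7 TPM in radioresistant libraries and 24.1, 24.4 and 25.3 TPM in shNC libraries, a difference of -1.42 ± 0.16, and control libraries read 36.5 to 40.9 TPM. IRF9 was lower by -1.47 ± 0.05, and its libraries did not overlap either. STAT3 was lower as well, by -1.38 ± 0.10. IRF1 and IRF3, which can act on interferon genes without that complex, were not called, at 0.64 and -0.22. SOCS1, a feedback inhibitor of the kinases, was lower by -1.48 ± 0.21. In all, 6 of 21 interferon signalling genes compared were lower (28.6%, beside 9.19% of all genes), 2 were higher (the 2 ligands, 9.52% beside 3.36%) and 13 were neither. IFNL1, below 1 TPM in every radioresistant library, passed the filter only through shNC cells, which set its direction. With any shNC library left out, 1 of 20 genes compared was higher. IRF7 did not reach the filter, and it was listed at 0 in every shNC library.

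Of 58 interferon-stimulated genes on the list, 57 passed the filter: 46 were lower in shNC cells (80.7%, beside 9.19% of all genes), 5 were higher (8.77%, beside 3.36%) and 6 were neither. The median was -2.14, beside -0.18 over all genes. CXCL11, below 1 TPM in every radioresistant library, passed the filter only through shNC cells, which set its direction as higher. XAF1, below 1 TPM in every shNC library, passed only through radioresistant cells, which set its direction as lower. With any shNC library left out, 4 of 56 were higher, and with any radioresistant library left out, 44 or 45 of 56 were lower. The summed level of the list was 40043 to 50806 TPM in radioresistant libraries, 6739 to 6855 TPM in shNC libraries and 3815 to 4071 TPM in control libraries. The sum in shNC cells was therefore below every radioresistant library and above every control library. In shIFI16 cells the sum was 5674 to 5866 TPM and the median against radioresistant cells was -2.21. Both groups of the second table were thus low, and a part of the hairpin itself cannot be told apart from a part of the table.

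MX1, which encodes an antiviral GTPase, had the largest fall of the list. It read 534, 545 and 463 TPM in radioresistant libraries and 1.44, 0.882 and 0.768 TPM in shNC libraries, a difference of -8.00 ± 0.20. Control libraries read 11.6, 14 and 7.42 TPM, so shNC cells lay below the unirradiated level of MX1 as well. IFI27, a mitochondrial interferon-induced protein, read 5575, 3950 and 4258 TPM in radioresistant libraries and 104, 116 and 129 TPM in shNC libraries, against 235 to 261 TPM in control. The level of IFI27 was also below control in every shNC library.

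IFI6, an inhibitor of cell death, returned to the control level. Its values were 11926, 8914 and 8751 TPM in radioresistant libraries, 358, 377 and 393 TPM in shNC libraries and 387, 377 and 361 TPM in control libraries. The difference between shNC and control cells was 0.00. IFITM1, which blocks the entry of viruses, read 4114, 3914 and 2951 TPM and then 117, 126 and 136 TPM, with control libraries at 88.5 to 109.8 TPM. XAF1, which promotes cell death, read 44.0, 56.1 and 32.8 TPM and then 0.669, 0.608 and 0.477 TPM. LY6E, a membrane protein that limits viral fusion, read 2415, 2123 and 1812 TPM and then 79.8, 74.7 and 86.4 TPM, still above the control range of 15.8 to 20.1 TPM. These genes show that the distance to the control level differed from gene to gene.

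ISG15, a ubiquitin-like modifier, and the oligoadenylate synthetases stopped between the levels of radioresistant and control cells. ISG15 read 8072, 7462 and 6489 TPM in radioresistant libraries, 1232, 1229 and 1282 TPM in shNC libraries and 221 to 256 TPM in control libraries. OAS1 read 385, 385 and 335 TPM and then 15.4, 17.1 and 16.2 TPM, and its control libraries were at 3.45 to 6.64 TPM. Of the 51 list members that were higher in radioresistant than in control cells, 7 kept that level in shNC (at most 0.5 below radioresistant cells on the log2 scale), 23 lay between and 21 lost it (at most 0.5 above control). Over all 652 rises, 28.5% were kept, 23% lay between and 48.5% were lost, so loss was not particular to this list. Those counted as kept include OASL, IFIT2 and ISG20, which were called higher than in radioresistant cells. These counts reuse the radioresistant and control libraries, so they are a description of levels.

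A small set of interferon-stimulated genes went against the rest. OASL, an antiviral protein related to the synthetases, read 81.1, 72.2 and 60.6 TPM in radioresistant libraries and 508, 513 and 499.6 TPM in shNC libraries, a difference of 2.82 ± 0.15. IFIT2, an RNA-binding antiviral protein, read 45.0, 45.4 and 32.9 TPM and then 243, 257 and 246 TPM. ISG20, an exonuclease, read 8.53, 5.59 and 4.38 TPM and then 20.3, 19.3 and 21.3 TPM. All of these were above every radioresistant library in all 3 shNC libraries.

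The chemokines CXCL10 and CXCL11, which attract T cells, had the largest rises among coding genes with a mean of at least 10 TPM in the higher group. CXCL10 read 0.807, 1.18 and 0.838 TPM in radioresistant libraries and 86.6, 90.9 and 94.5 TPM in shNC libraries, 96.3-fold by the means. CXCL11 read 0.311, 0.301 and 0.184 TPM and then 39.5, 37.0 and 39.6 TPM, and it was listed at 0 in every control library. Both were above 10 TPM in every shIFI16 library too, at 47.2 to 50.5 TPM for CXCL10 and 12.4 to 16.8 TPM for CXCL11. The genes that were neither were IFIT3, RSAD2, HERC5, GBP2, DDX60 and SHISA5. RSAD2, which encodes viperin, read 117, 132 and 102 TPM in radioresistant libraries, 103, 98.8 and 96.1 TPM in shNC libraries and at most 0.249 TPM in control libraries. IFIT3 read 306, 341 and 262 TPM, then 261, 189 and 219 TPM, with control at 9.14 to 15 TPM.

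Of 19 genes of antigen presentation compared, 11 were lower in shNC cells (57.9%, beside 9.19% of all genes), 0 were higher and 8 were neither, with a median of -1.69 beside -0.18. The lower genes included the heavy chains HLA-B, HLA-C, HLA-E and HLA-F, the transporter subunits TAP1 and TAP2, their partner TAPBP, PSMB8, PSMB9 and NLRC5. B2M, CALR, PDIA3, ERAP1, ERAP2, PSMB10, PSME1 and PSME2 were not called, at -0.85 to 0.28. HLA-B, a heavy chain, read 987, 877 and 590 TPM in radioresistant libraries and 66.3, 73.3 and 68.2 TPM in shNC libraries, with control at 7.90 to 9.60 TPM. TAP1, the peptide transporter, read 368, 314 and 287 TPM and then 39.0, 37.8 and 36.0 TPM. PSMB9, an immunoproteasome subunit, read 245, 168 and 142 TPM and then 33.2, 33.4 and 35.1 TPM. The libraries of these 3 genes did not overlap between the groups. B2M, the light chain, read 5428, 5797 and 4112 TPM in radioresistant libraries and 4509, 5164 and 5157 TPM in shNC libraries, with overlap and a difference of -0.04 ± 0.20. NLRC5, the activator of class I genes, was lower by -2.22. HLA genes are polymorphic and have close copies, so their values are uncertain.

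Most genes of nucleic acid sensing were not called: of 18 compared, 3 were lower (IFI16, TLR3 and SAMHD1) and 0 were higher, and the share of 16.7% lower stands beside 9.19% over all genes. Only 1 was lower with median-ratio scaling, quantile normalization or rescaling without small RNA and histone genes, and also without radioresistant replicate 2. SAMHD1, which degrades nucleotides, read 267, 323 and 274 TPM in radioresistant libraries and 74.7, 70.0 and 70.3 TPM in shNC libraries. DDX58, the RNA sensor RIG-I, read 132, 159 and 122 TPM and then 132, 138 and 128 TPM, against 15.5 to 29.8 TPM in control. Its radioresistant level was thus kept. TMEM173, which encodes STING, MAVS and the kinase TBK1 differed by 0.45, -0.17 and -0.07 and were not called.

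NF-kB targets were the list with several cytokines higher. Of 30 compared, 7 were higher (TNFAIP3, ICAM1, CCL5, IL6, PTX3, CSF2 and IL32) and 1 was lower, 23.3% higher beside 3.36% over all genes, with a median of 0.21. With any shNC library left out, 5 or 6 of 29 were higher, and with any radioresistant library left out 6 or 8 of 29. The member that dropped out without a shNC library passed the filter only through shNC cells, which set its direction. CCL5, a chemokine for T cells and monocytes, read 5.28, 4.92 and 5.25 TPM in radioresistant libraries and 192, 108 and 140.1 TPM in shNC libraries, against at most 0.312 TPM in control. IL32, an inflammatory cytokine, read 1.93, 1.65 and 2.46 TPM and then 9.42, 12.7 and 11.9 TPM. IL6 read 6.75, 7.52 and 7.94 TPM and then 14.4, 14.9 and 19.7 TPM, close to the limit of a call at 1.04. CXCL8, which attracts neutrophils, was the lower gene, with 10.4, 15.1 and 18.6 TPM and then 3.27, 2.80 and 4.53 TPM. The NF-kB subunits NFKB1, NFKB2, RELA, RELB and REL were not called. With shIFI16 in place of shNC, 2 of the targets were higher, 3 were lower and the median was -0.26. The difference between the 2 hairpin groups was not tested.

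**Figure D3:**
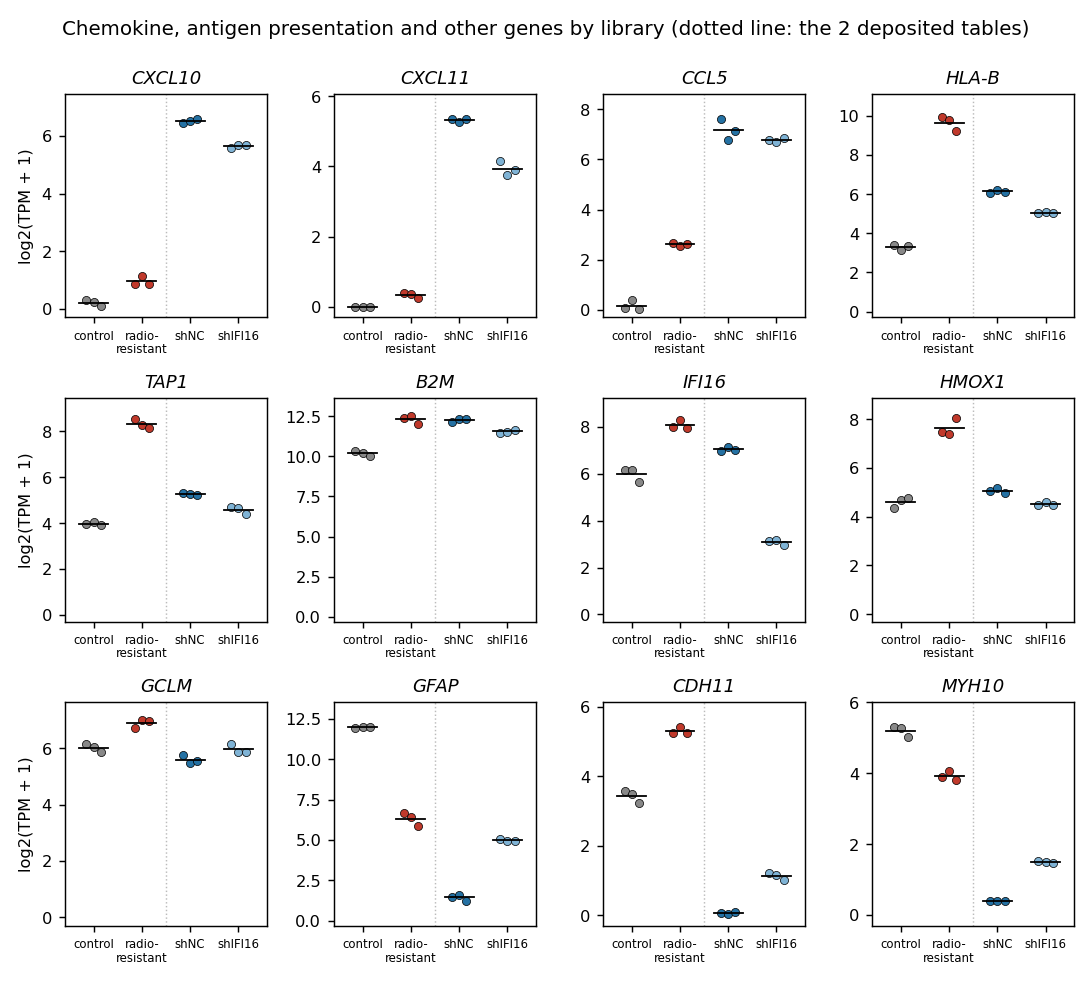
log2(TPM + 1) of 12 further genes in each library (points) with the group mean (bar), 3 libraries per group, and the dotted line between the 2 tables. CXCL10, CXCL11 and CCL5 are high in both hairpin groups, B2M is at the radioresistant level in shNC, and HMOX1 and GCLM lie near control. GFAP, CDH11 and MYH10 are lowest in shNC.

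HMOX1 and a part of the other NRF2 targets were lower. HMOX1, which degrades heme, at chr22:35381096-35394207, read 178, 168 and 259.9 TPM in radioresistant libraries, 32.1, 34.8 and 30.1 TPM in shNC libraries and 19.7, 25.0 and 26.4 TPM in control libraries. The difference was -2.58 ± 0.25, and shNC libraries stood slightly above control. Of 34 genes compared on the NRF2 list, 15 were lower (44.1%, beside 9.19% of all genes), 0 were higher and 19 were neither. With any radioresistant library left out, 32 were compared and 12 to 14 were lower. The members that dropped out passed the filter only through radioresistant cells, which set their direction as lower. All 34 lay below 0, as did 8135 of the 12873 genes, and the median was -0.90 beside -0.18, or -0.74 with median-ratio scaling. TXN and TALDO1 were among the genes not called, at -0.04 and -0.02. AKR1C1, an aldo-keto reductase, read 75.5, 77.1 and 57.4 TPM and then 12.5, 14.3 and 12.4 TPM. NQO1, a quinone reductase, read 659, 718 and 683 TPM and then 289.6, 289 and 294 TPM, below the control range of 452 to 538 TPM. FTL, the ferritin light chain, was lower by -1.57 ± 0.06. The subunits of glutathione synthesis were lower by -1.24 (GCLC) and -1.31 (GCLM), and SLC7A11, the cystine importer, by -1.50. NFE2L2, which encodes NRF2, and its inhibitor KEAP1 differed by -0.03 and -0.13. Of the 11 NRF2 targets higher in radioresistant than in control cells, 0 kept that level, 2 lay between and 9 lost it. Over all 652 rises these shares were 28.5%, 23% and 48.5%.

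The core TGACNNNGC of the antioxidant response element was in 2 of 10 promoters of lower NRF2 targets and in 2 of 14 that were neither, beside 13.6% of all promoters. With TGAGNNNGC counted as well, the counts were 6 of 10 and 4 of 14, beside 29.4% of all promoters. Of 29 ferroptosis suppressors compared, which share members with the NRF2 list, 7 were lower (24.1%) and 1 (GCH1) was higher. Of 29 heme and iron genes 3 were lower (10.3%) and 1 was higher (3.45%), near the shares over all genes of 9.19% and 3.36%. The suppressors GPX4 and AIFM2 differed by 0.14 and 0.23. GCH1, the first enzyme of tetrahydrobiopterin synthesis, was higher, with 10.8, 10.2 and 12.9 TPM in radioresistant libraries and 46.1, 44.3 and 48.2 TPM in shNC libraries. The copper-dependent iron oxidase HEPH read 34.4, 30.7 and 19.8 TPM and then 0.540, 0.420 and 0.375 TPM. HEPH thus passed the filter only through radioresistant cells, which set its direction as lower. With any radioresistant library left out, 2 of 28 heme and iron genes were lower.

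Some stress and growth response genes were lower. Of 28 genes of the integrated stress response, 7 were lower (25%, beside 9.19% of all genes) and 0 higher, with a median of -0.75 beside -0.18. SLC7A5, an amino acid transporter, read 132, 129 and 149 TPM in radioresistant libraries and 44.5, 41.3 and 39.1 TPM in shNC libraries. ATF4, the transcription factor of that response, read 660.1, 660.4 and 665 TPM and then 358, 374 and 355 TPM. Its difference of -0.87 missed the limit of a call. Of 26 immediate early genes, 8 were lower (30.8%) and 1 (KLF4) was higher (3.85%). EGR1 read 36.8, 39.7 and 38.0 TPM and then 6.81, 5.42 and 5.27 TPM, below the control range of 9.64 to 19.7 TPM. MYC read 75.3, 93.5 and 101 TPM and then 31.9, 34.2 and 32.9 TPM. Among 29 p53 targets 3 were lower (CDKN1A, MDM2 and PLK2), a share of 10.3% that is near the 9.19% of all genes, and with median-ratio scaling 2 were higher.

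Glial markers of the line were in part low. GFAP, the intermediate filament of astrocytes, at chr17:44903159-44915500, read 3882, 4073 and 4079 TPM in control libraries, 102, 83.9 and 56.2 TPM in radioresistant libraries and 1.75, 2.06 and 1.37 TPM in shNC libraries. It was thus lower than control in both groups and lower again in shNC, by -4.87 ± 0.33. In shIFI16 libraries GFAP read 33.0, 30.2 and 30.1 TPM, so the lowest level was that of shNC. VIM and NES, intermediate filaments of glioma cells, differed by 0.21 each, and VIM read 4373 TPM or more in all 12 libraries. SOX2, a stem cell factor, was higher, at 171, 146 and 130 TPM and then 349, 339.7 and 337 TPM, within 0.5 of control. Of 17 astrocyte and radial glia genes, 5 were lower (GFAP, CLU, CRYAB, ID1 and ID4; 29.4%, beside 9.19% of all genes) and 0 higher. The call of CLU was lost under both median-ratio scaling and quantile normalization.

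Some genes were lower in shNC than in both radioresistant and control cells. CDH11, a mesenchymal cadherin, read 36.8, 41.7 and 36.8 TPM in radioresistant libraries, 0.0455, 0.0138 and 0.0632 TPM in shNC libraries and 8.35 to 11 TPM in control libraries. MYH10, a non-muscle myosin, read 13.9, 15.8 and 12.9 TPM and then 0.321, 0.305 and 0.318 TPM, with control at 31.3 to 38.9 TPM. SLC38A3, a glutamine transporter, read 39.3, 30.4 and 14.6 TPM and then 0.101, 0.204 and 0.112 TPM. These 3 genes read 1.02 to 3.35 TPM in shIFI16 libraries, above the shNC level and below the radioresistant one. PDGFRA, a growth factor receptor, was lower by -2.68 and was the largest fall among proneural genes. Against control cells, 1723 of 12978 genes were lower in shNC (13.3%) and 571 were higher (4.40%).

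With the values as deposited, falls that came with radioresistance were mostly kept, and rises mostly were not. In radioresistant cells 652 of 13127 genes were higher than in control (4.97%) and 840 were lower (6.40%). Of the rises, 186 were kept in shNC cells (28.5%), 150 lay between (23%) and 316 were lost (48.5%). Of the falls, 604 were kept (71.9%), 123 lay between and 113 were lost (13.5%). All 652 rises but only 704 of the falls were of genes that passed the filter for shNC against radioresistant cells. Of these 704 falls, 481 were kept, 113 lay between and 110 were lost. The other falls were of genes low in both groups, whose levels on this scale can differ little, which favours a kept fall. Among the kept falls were CNR1, the cannabinoid receptor, at 119.8 to 149 TPM in control, 2.50 to 5.43 TPM in radioresistant libraries and 3.04 to 3.59 TPM in shNC libraries, and the receptor NPY1R, the zinc finger gene ZNF423, FAIM2 and RBP4. Kept rises included NT5E, which encodes the ectonucleotidase CD73, at 11.9 to 17, 124 to 161 and 187 to 211 TPM in these 3 groups. Lost falls included MMP2, a matrix metalloproteinase, at 62.7 to 73.4 TPM in control, 16.8 to 17.9 TPM in radioresistant libraries and 76.9 to 84.6 TPM in shNC libraries, and CRIP2, DIRAS3, DBN1 and STRA6. Lost rises outside the interferon list included SEMA3F and ELMO1. A fall counts as kept when shNC lies at most 0.5 above radioresistant cells, however far below. A rise counts as lost when shNC lies at most 0.5 above control, however far below. Over all genes the median of shNC cells was -0.18 against radioresistant and -0.26 against control cells. Such a general shift favours kept falls and lost rises, and the shares were not recomputed under other scalings. The shares also reuse the radioresistant libraries on both sides and are given with no test.

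Lipid and matrix genes moved in part. Of 31 sterol and fatty acid genes, 5 were lower (SREBF1, SREBF2, FASN, ACACA and INSIG1; 16.1%, beside 9.19% of all genes) and 0 higher. Under both median-ratio scaling and quantile normalization 3 were lower and 1 was higher, since ACACA and INSIG1 lost the call. Of the list, 4 genes are on chromosome 17 and 1 is on chromosome 22, and its median of -0.30 was -0.12 relative to the chromosome. FASN, the fatty acid synthase, read 411 to 519.9 TPM in control, 229.6 to 241 TPM in radioresistant libraries and 61.1 to 74.9 TPM in shNC libraries. The matrix list held 10 lower and 5 higher genes among 35 (28.6% and 14.3%, beside 9.19% and 3.36% of all genes). With any radioresistant library left out, 8 or 9 of 33 were lower, and with any shNC library left out 4 of 34 were higher. The members that dropped out passed the filter only through the group that lost a library, which set their direction. The matrix list held 7 of each under both of these scalings, median-ratio and quantile. Over all genes the lower and higher shares were then 6.85% and 4.93% (median-ratio) and 5.91% and 5.14% (quantile). COL11A1 read 42.2, 37.9 and 32.0 TPM in radioresistant libraries and 4.09, 3.76 and 3.65 TPM in shNC libraries. FN1, fibronectin, was higher by 1.39. Of 31 mesenchymal genes 8 were lower and 6 higher (25.8% and 19.4%). With median-ratio scaling 6 were lower and 7 higher, and after quantile normalization 6 were lower and 5 higher. The higher ones included TIMP1, a protease inhibitor, at 214 to 261 TPM and then 665 to 734 TPM.

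Housekeeping and growth lists gave the reference for the rest. Of 48 proliferation genes, 0 were lower and 1 (BUB1B) was higher, with a median of -0.01 that took the other sign under other scalings. Of 25 housekeeping genes 1 (GPI) was lower, with a median of 0.06. ACTB differed by -0.95 and GAPDH by -0.11. Of 77 ribosomal protein genes 24 were higher (31.2%, beside 3.36% of all genes) and 1 (RPS15) was lower, with a median of 0.70, and of 0.54 to 0.86 under the other scalings tried. RPS2 read 200.1, 217 and 245 TPM in radioresistant libraries and 1284, 1188 and 1362 TPM in shNC libraries. The ribosomal median was 0.77 for shIFI16 against radioresistant cells and 0.09 for shIFI16 against shNC cells. The small RNA list had 8 of 14 genes higher (57.1%, beside 3.36% of all genes), and its median was 2.48. With any shNC library left out, 10 or 11 of its genes were compared and 5 or 6 were higher. Some members thus needed the shNC libraries to pass the filter, which favours a higher call. RN7SK, a regulator of transcription elongation, read 13.2, 8.98 and 13.2 TPM and then 410.5, 189 and 148 TPM. BCYRN1, a short cytoplasmic RNA, read 59.8, 18.7 and 78.8 TPM and then 3504, 3217 and 4519 TPM. Of 20 histone genes 5 were lower (25%, beside 9.19% of all genes), and 16 of the 20 are on chromosome 6, where the median over coding genes was low. Their own median was -0.47, and 0.15 relative to the chromosome. The part of library preparation in these values was not tested.

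**Figure D4:**
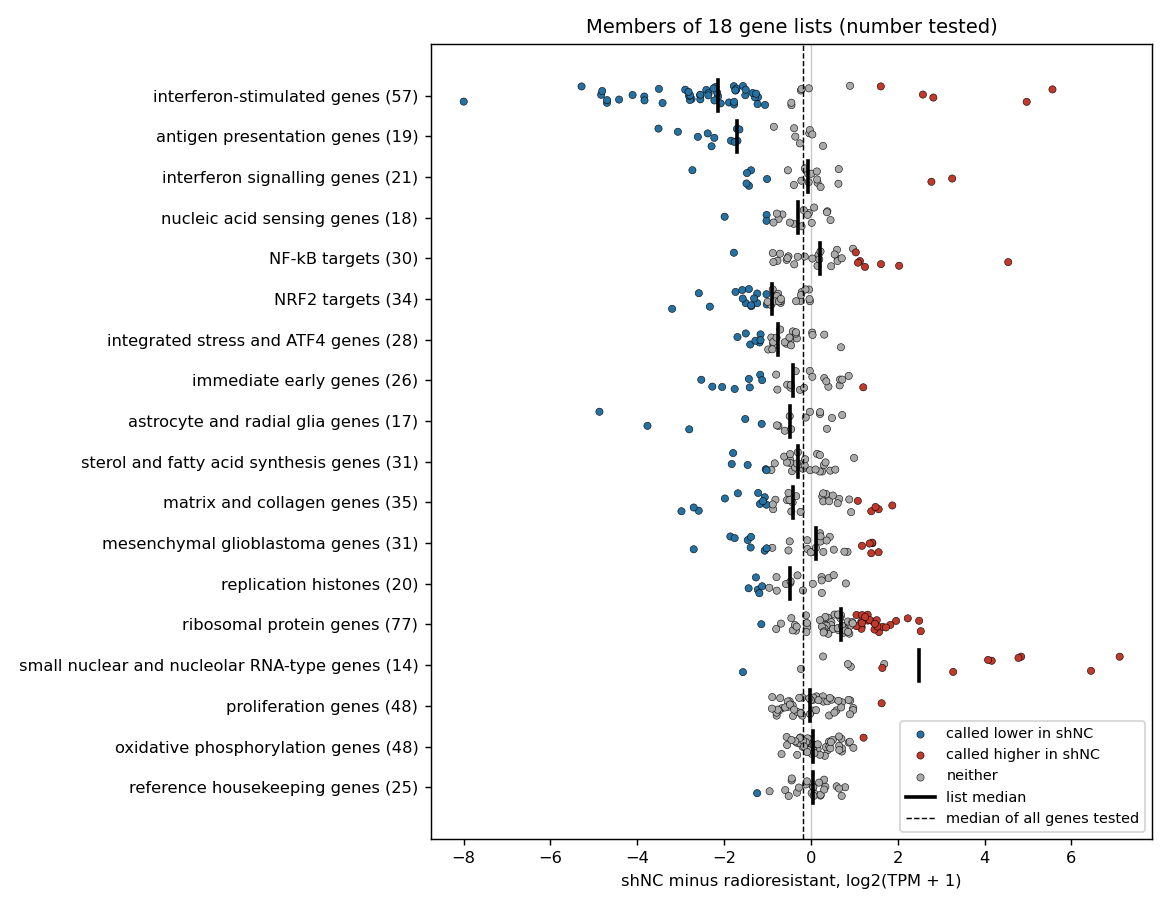
Difference of shNC and radioresistant cells, log2(TPM + 1), for every compared member of 18 gene lists (points, coloured by call), with the list median (thick bar) and the median of all genes (dashed line, -0.18). The interferon-stimulated list has its median at -2.14 with 5 genes above 1, antigen presentation at -1.69, NRF2 targets at -0.90, and ribosomal protein genes at 0.70.

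Markers of other cell types were mostly not expressed. Of 15 immune markers 1 passed the filter and 9 were at 0 in all shNC libraries, with AIF1 and TYROBP at 0 in all 12 libraries. Their summed level was 19.5 to 24.1 TPM in radioresistant libraries and 37.8 to 40.6 TPM in shNC libraries. Of 10 endothelial markers 2 passed, with sums of 5.95 to 6.01 and 6.28 to 7.52 TPM, and CDH5 was higher. Of 10 epithelial markers 4 passed and none was called, with sums of 42.6 to 60.2 and 71.6 to 77.3 TPM. Of 11 neuron markers 6 passed and none was called, with sums of 498 to 569 and 476 to 489 TPM. Of 8 oligodendrocyte markers only CNP passed, and it was lower, with sums of 122 to 141 and 40.7 to 48.0 TPM.

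Lower and higher genes were not spread evenly over the chromosomes. This was noticed in the data and is given as values with no test, over coding genes with a RefSeq position. On chromosome 22, 115 of 269 genes were lower in shNC cells (42.8%, beside 9.34% of all coding genes). Only 1 was higher (0.37%, beside 3.02%). The median on chromosome 22 was -0.91, and the same genes had a median of 0.58 in radioresistant against control cells. The medians of single libraries relative to the control mean on chromosome 22 were 0.55 to 0.63 in radioresistant, -0.34 to -0.23 in shNC and -0.36 to -0.26 in shIFI16 libraries. Chromosomes 6, 17 and 19 had medians of -0.54, -0.52 and -0.41, and the other chromosomes lay between -0.30 and 0.01. Unlike chromosome 22, these 3 had medians of only -0.11, -0.15 and 0.08 in radioresistant against control cells. In shNC against control cells their medians were -0.60, -0.62 and -0.36. HMOX1, USP18, APOL1, APOL6, SREBF2 and XRCC6 are on chromosome 22, and 10 of the 19 antigen presentation genes are on chromosome 6.

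The first part of chromosome 15 went the other way. Over the 40 genes that start before 40 Mb, the median was -0.94 in radioresistant against control cells, 0.93 in shNC against radioresistant cells and -0.13 in shNC against control cells. Of these genes 37 of 40 were below control in radioresistant cells, and 35 of 40 were above radioresistant cells in shNC. On the rest of chromosome 15, with 336 genes, the medians were -0.19, -0.02 and -0.14. The proliferation gene BUB1B, which was higher in shNC cells, starts just beyond that limit. Relative to the median of its own chromosome, HMOX1 was at -1.67 and HLA-B at -2.97. The list medians relative to the chromosomes were -1.76 for interferon-stimulated genes, -1.15 for antigen presentation and -0.69 for NRF2 targets. The DNA of these cells was not analysed here, and the cause of the pattern was not tested.

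**Figure D5:**
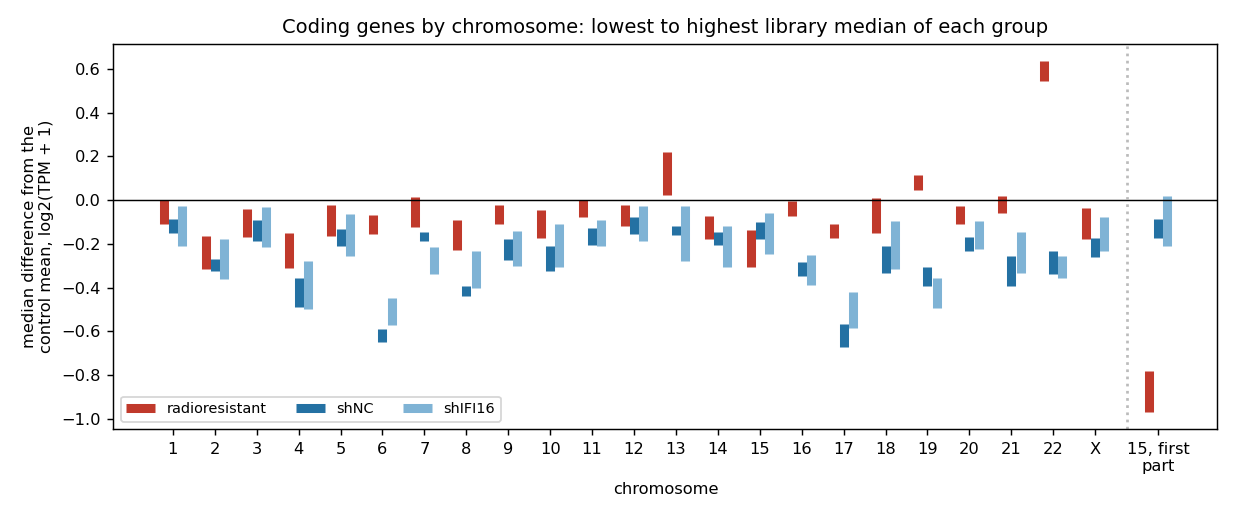
Median difference of coding genes from the control mean, log2(TPM + 1), by chromosome, as the range from the lowest to the highest library of the radioresistant, shNC and shIFI16 groups (3 libraries each). The last position holds the first part of chromosome 15. Radioresistant libraries stand apart on chromosome 22 (0.55 to 0.63) and on the first part of chromosome 15, while shNC and shIFI16 libraries overlap or lie near each other. On chromosomes 6, 17 and 19 the shNC and shIFI16 libraries lie below the radioresistant ones, which are nearer to control.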

How the data were processed

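RNA libraries were sequenced for 4 groups of 3, per the labels. Values were deposited as TPM, and each library summed to 1000000. The tables are named for counts, but the values are not whole numbers, so no count test was used and the depth is unknown. The build hg38 and the tools featureCounts, Cufflinks 2.2.1, TopHat and Trim Galore 0.6.6 are named, without roles, in the submitters' processing notes. Which of these made the TPM, and whether strand was used, is not given in the sources used here. Column codes were read as control (UN), radioresistant (UR), shNC (URN) and shIFI16 (URS). That reading was inferred. The labels place shNC and shIFI16 in the second table, and as a check IFI16 is low in URS, which leaves URN for shNC. Both tables hold the same 24489 entries, of which 28 with date names were left out. The remaining 24461 symbols were joined by name, and 23379 matched RefSeq (GRCh38.p14).

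Differences are of mean log2(TPM + 1), with a pseudocount of 1, in Python 3.11.15 with pandas 2.3.3 and numpy 2.4.6. Such differences understate changes of low genes. An exact 0 can be a failed estimate, so no fold is given against it. A gene below 1 TPM in a whole group passed the filter only through the other group, which sets its direction. The call rule was tested on simulated data with the same spread for every gene and no difference between tables. That simulation cannot show how the rule behaves across the 2 tables. The genes and the 36 lists were chosen with earlier results of these data known, so counts of list members are descriptions.

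Named were IFI16, HMOX1 and GFAP, the 10 largest called falls and rises (mean of at least 10 TPM in the higher group, not at 0 throughout a table), 5 kept and 5 lost changes in each direction, 5 genes per direction called against both radioresistant and control cells, and up to 5 members per list. Other named members say what did not differ or complete a family. Rises among coding genes alone, the chromosome pattern and the NF-kB core were chosen after the values were seen. Motifs were searched on both strands of 27305 RefSeq promoters: GAAANNGAAA, GGGANNTTCC, TGACNNNGC and TGAGNNNGC. No mitochondrially encoded gene matched. Alternatives were 0.1 as pseudocount, other filters, median-ratio scaling, quantile normalization, rescaling without small RNA and histone genes, a 4-fold limit, and each library left out. Some genes are not reported here.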

Additional observations from a re-analysis of the deposited data

How the results depend on the processing

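The 1183 lower and 432 higher genes stayed within 1.5 times of these counts with a pseudocount of 0.1, with no filter, with median-ratio scaling (883 and 635) and with rescaling without small RNA and histone genes. With a mean of at least 10 TPM required, 756 were lower. Quantile normalization gave 765 lower, 761 of them among the 1183, and 665 higher, 421 of them among the 432. A 4-fold limit left 210 lower and 77 higher. Without chromosomes 6, 17, 19 and 22, an alternative added after the data were seen, 699 were lower. Leaving out each library in turn gave 920 to 1297 lower and 361 to 479 higher genes. Those fits kept the requirement of 3 libraries at 1 TPM.

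The median of interferon-stimulated genes, -2.14, was -1.98 with median-ratio scaling, -1.98 after quantile normalization and -1.76 relative to the chromosome, and -2.18 to -2.05 with a library left out. No named gene that was called changed sign under any alternative run, and neither did the medians of interferon-stimulated genes, antigen presentation, NRF2 targets, the integrated stress response and ribosomal proteins. Medians near 0 did: with median-ratio scaling those of interferon signalling, ferroptosis suppressors, heme and iron, secreted factors of senescence, proliferation, both chaperone lists and hypoxia went from below to above 0. Of 128 named genes that were called, 119 were called again with median-ratio scaling, 120 after quantile normalization and 67 at a 4-fold limit. Of the 115 that remained after rescaling without small RNA and histone genes, 112 were. IFI16, TLR3 and ACACA lost the call in all 3 rescalings. Median-ratio scaling moved the median of all genes from -0.18 to -0.03. No paired analysis was possible because the compared libraries lie in 2 separately normalized tables and the result comes from no test. TPM keeps no depth, so no limit from counting could be given for low genes.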

Other observations

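Several coding genes outside the lists were higher in shNC cells. LGR6, a receptor of R-spondins, read 0.212, 0.131 and 0.0602 TPM in radioresistant libraries, 12.3, 8.37 and 12 TPM in shNC and 4.97 to 6.97 TPM in control. SP8, a zinc finger transcription factor, read 2.67, 2.46 and 1.81 TPM and then 28.1, 26 and 27.2 TPM. RAET1L, a ligand of the receptor NKG2D, read 0.208 to 0.812 TPM and then 11.9 to 14.5 TPM. ADAP1 read 0.0957 to 0.513 TPM and then 9.54 to 11.5 TPM. All were above every radioresistant library, and these genes were chosen after their values were seen.

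Secreted binding proteins of insulin-like growth factors went both ways. IGFBP6 read 58.9, 38.8 and 38.9 TPM in radioresistant libraries and 231, 225 and 252 TPM in the shNC ones. IGFBP7 read 1244, 1032 and 894 TPM and then 231, 211 and 242 TPM, below the control range of 1314 to 1718 TPM. IGFBP3 fell from 6.54, 8.62 and 6.76 TPM to 2.52, 1.11 and 0.874 TPM, near control.

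On chromosome 17 the genes that start before 10 Mb had a median of -0.11 in shNC against radioresistant cells and -0.52 in radioresistant against control cells, over 136 genes. The 561 genes beyond that point had medians of -0.59 and -0.06. Of 223 bins of 10 Mb with at least 20 coding genes, 23 had a median below -0.5 in shNC against radioresistant cells, 22 of them on chromosomes 6, 17, 19 and 22, and 1 had a median above 0.5. Among biotypes, 7 of 10 ribosomal RNA genes (70%) and 7 of 8 small nuclear RNA genes (87.5%) were higher in shNC cells, beside 3.36% of all genes. RNA5S1, RNA5S3, RNA5S5, RNA5S9, RNA5S10, RNA5S13 and RNVU1-7 were listed at 0 in every radioresistant library. They passed the filter only through shNC cells, which set their direction as higher, so these shares were in part set by the filter.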
